A study of Mus musculus with 16 samples.

Results

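The genes described here are 10 that encode RNA polymerase I (Pol I) subunits and the factors that bring the enzyme to its promoter, namely Polr1a, Polr1b, Polr1c, Polr1d, Polr1e, Rrn3, Ubtf, Taf1b, Taf1c and Taf1d. They were chosen by symbol, and all 10 were found among the 21671 genes of the expression table. All 10 also passed the filter on low values that left 13028 genes for testing. The RNA came from mouse embryonic fibroblasts carrying MycER, a fusion of Myc to a hormone-binding domain that is switched on by 4-hydroxytamoxifen (OHT). The 16 libraries form 8 groups of 2. The groups named MycER, MycER Y27, MycER OHT and MycER OHT Y27 carry the MycER genotype, and received neither drug, Y27632 (Y27, an inhibitor of the kinase ROCK) at 50 µM, OHT at 400 nM, or both. The groups named YAP2S, YAP2S Y27, YAP2S OHT and YAP2S OHT Y27 have the genotype MycER_YAP2S and were treated in the same 4 ways. The study describes these cells as overexpressing an activated mutant of YAP, a protein that drives transcription through TEAD factors. MycER is present in every group, so no group shows cells without it. The study describes the cells as serum-starved, and no label tells if paired replicates were grown as separate cultures, so the p-values measure the spread between these libraries, which may be technical.

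Pol I works in the nucleolus, where it transcribes the ribosomal DNA repeats into the precursor of the large ribosomal RNAs. Its promoter is bound by UBF, the product of Ubtf, and by the selectivity factor SL1 (TIF-IB in the mouse), which holds the TATA-binding protein and Pol I specific TAFs, and the factor encoded by Rrn3 (TIF-IA) joins the enzyme to that complex. Myc is known to stimulate ribosome biogenesis at many steps in growing fibroblasts, including through Pol I. The ribosomal RNA itself is not a row of the table and was not analysed here.

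Promoter windows of 3 members are printed, those of the pair with the most similar profiles and that of the member with a canonical E-box, each from 250 bases before to 50 bases after the annotated start (RefSeq, GRCm38.p6). The pair is Polr1b and Polr1e, and the member with the E-box is Rrn3. Capitals mark CACGTG (the canonical E-box, a palindrome), CACGCG or its other strand CGCGTG (a non-canonical E-box), and GGAATG or its other strand CATTCC (the core bound by TEAD factors). The windows lie at chr2:129100746-129101045 on the plus strand for Polr1b, chr4:45018359-45018658 on the plus strand for Polr1e and chr16:13780449-13780748 on the plus strand for Rrn3.
Polr1b: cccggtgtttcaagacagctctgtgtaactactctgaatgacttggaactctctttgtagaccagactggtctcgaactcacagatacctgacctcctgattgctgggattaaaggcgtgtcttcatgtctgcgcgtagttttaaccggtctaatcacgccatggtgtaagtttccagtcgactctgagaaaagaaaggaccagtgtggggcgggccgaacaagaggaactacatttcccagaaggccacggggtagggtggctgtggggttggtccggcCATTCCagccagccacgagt
Polr1e: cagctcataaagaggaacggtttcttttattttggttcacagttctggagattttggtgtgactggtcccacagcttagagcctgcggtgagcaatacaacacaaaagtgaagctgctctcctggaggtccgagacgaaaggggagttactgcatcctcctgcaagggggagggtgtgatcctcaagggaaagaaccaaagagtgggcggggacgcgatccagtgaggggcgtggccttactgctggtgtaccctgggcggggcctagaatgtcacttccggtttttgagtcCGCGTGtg
Rrn3: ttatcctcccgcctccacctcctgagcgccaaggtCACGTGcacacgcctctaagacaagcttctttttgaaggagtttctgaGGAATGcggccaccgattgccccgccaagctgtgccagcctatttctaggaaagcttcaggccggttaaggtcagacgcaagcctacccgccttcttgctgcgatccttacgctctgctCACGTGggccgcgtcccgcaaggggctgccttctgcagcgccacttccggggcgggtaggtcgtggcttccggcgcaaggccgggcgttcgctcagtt
The Rrn3 window held 2 canonical E-boxes, which begin 215 and 48 bases before the start, and 1 TEAD core. The Polr1b window held 1 TEAD core and the Polr1e window 1 non-canonical E-box. RefSeq windows were matched for all 10 members, 16 windows in all because Ubtf and Taf1c have several starts. The canonical E-box was found in 1 of these 16 windows (Rrn3), against 7.15% of all 32851 windows. The non-canonical form was found in 5 of the 16 (Polr1c, Polr1e, Taf1d and 2 of the 6 Ubtf starts), against 9.27%. Its letters hold CpG pairs, and the GC content of those 5 windows ran from 46.3 to 72.0%, against a median of 52.7% over all windows. The TEAD core was found in 3 of the 16 (Polr1b, Rrn3 and 1 of the Ubtf starts), against 14.7%. A match is a stretch of letters and not a bound site, and binding was not measured in these files.

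Depth differed between libraries from 1.76 to 15.71 M assigned reads. MycER replicate 1 and both MycER OHT Y27 libraries held under 4 M. Values stop rising in the deepest libraries, where no gene exceeded 118.9 RPKM at 15.71 M reads, against a maximum of 662.6 RPKM at 1.76 M reads. Yap1 itself read 22.27 to 25.85 RPKM in YAP2S and YAP2S Y27 and 17.04 to 26.1 in MycER and MycER Y27, and the ranges overlapped. Whether reads of the introduced YAP fall on that row is not given in the sources used here. Of the YAP and TEAD targets, Ctgf read 94.75 and 93.07 in YAP2S, Cyr61 117.74 and 128.11 and Ankrd1 92.57 and 95.19, all below their values in MycER (Ctgf 170.87 and 139.33, Cyr61 389.94 and 202.73, Ankrd1 163.48 and 125.24). The highest value of any gene was 124.5 and 137.0 RPKM in the YAP2S libraries and 662.6 and 227.2 in those of MycER. A lower level in YAP2S cannot be told apart from that limit on values in deep libraries. With Y27 the order was the other way, with Ctgf at 64.3 and 60.62 in YAP2S Y27 and 11.32 and 14.04 in MycER Y27. Some OHT libraries go against their labels. Bex1, at 15.97 to 20.02 RPKM in YAP2S and YAP2S Y27 and at most 0.49 in MycER and MycER Y27, read 19.03 and 19.77 in the MycER OHT libraries and 7.64 and 7.49 in those of MycER OHT Y27, but at most 1.01 in the 4 libraries labelled YAP2S OHT or YAP2S OHT Y27. Ctgf, low in MycER Y27, read 144.98 and 154.89 in MycER OHT Y27. The comparison of all 8 OHT libraries with all 8 others does not depend on these labels, nor do those among libraries without OHT. All others are given for libraries as labelled and, for OHT, also across the labels. As fibroblasts, the cells expressed Col1a1, Fn1 and Vim, while Pdgfra, Thy1 and Lum stayed under 1 RPKM in every library. The 4 endothelial and 4 muscle markers were under 1 RPKM in every library, as were 4 of 5 epithelial markers (Cdh1 reached 1.83). Of 5 blood cell markers Ptprc, Itgam and Emr1 stayed under 1 RPKM, Csf1r reached 1.14, and Cd68 read 3.81 to 10.72. Of 4 neural markers Sox2 stayed under 1 RPKM, while Tubb3 read 26.47 to 62.85, Nes 29.14 to 83.76 and Map2 2.06 to 7.11. Summed levels with and without OHT were 5.05 to 11.5 and 4.74 to 8.57 RPKM for the blood cell list, 92.9 to 120.0 and 75.6 to 107.0 for the neural list and 0.231 to 1.15 and 0.828 to 2.09 for the epithelial list, and their part in the results was not tested.

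The level of the 10 genes spanned 5.75 RPKM for Taf1b to 82.6 RPKM for Polr1d, as means over 16 libraries. RPKM is reads per kilobase of gene per M assigned reads. Because values stop rising in deep libraries, the levels of the most densely covered members, Polr1d and Polr1c, are not strictly comparable with those of the others. Polr1c and Rrn3 averaged 62.7 and 56.0 RPKM, Taf1d 53.6, Polr1b 40.2, Polr1a 33.9, Ubtf 31.5, Taf1c 22.2 and Polr1e 21.7. Behind these levels stood between 22 reads (Taf1b in MycER OHT Y27 replicate 2) and 4852 reads (Polr1a in MycER OHT replicate 1). Among the members, Taf1c varied most, 3.64-fold between its lowest and highest library, and Polr1c least, 1.52-fold.

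**Figure D1:**
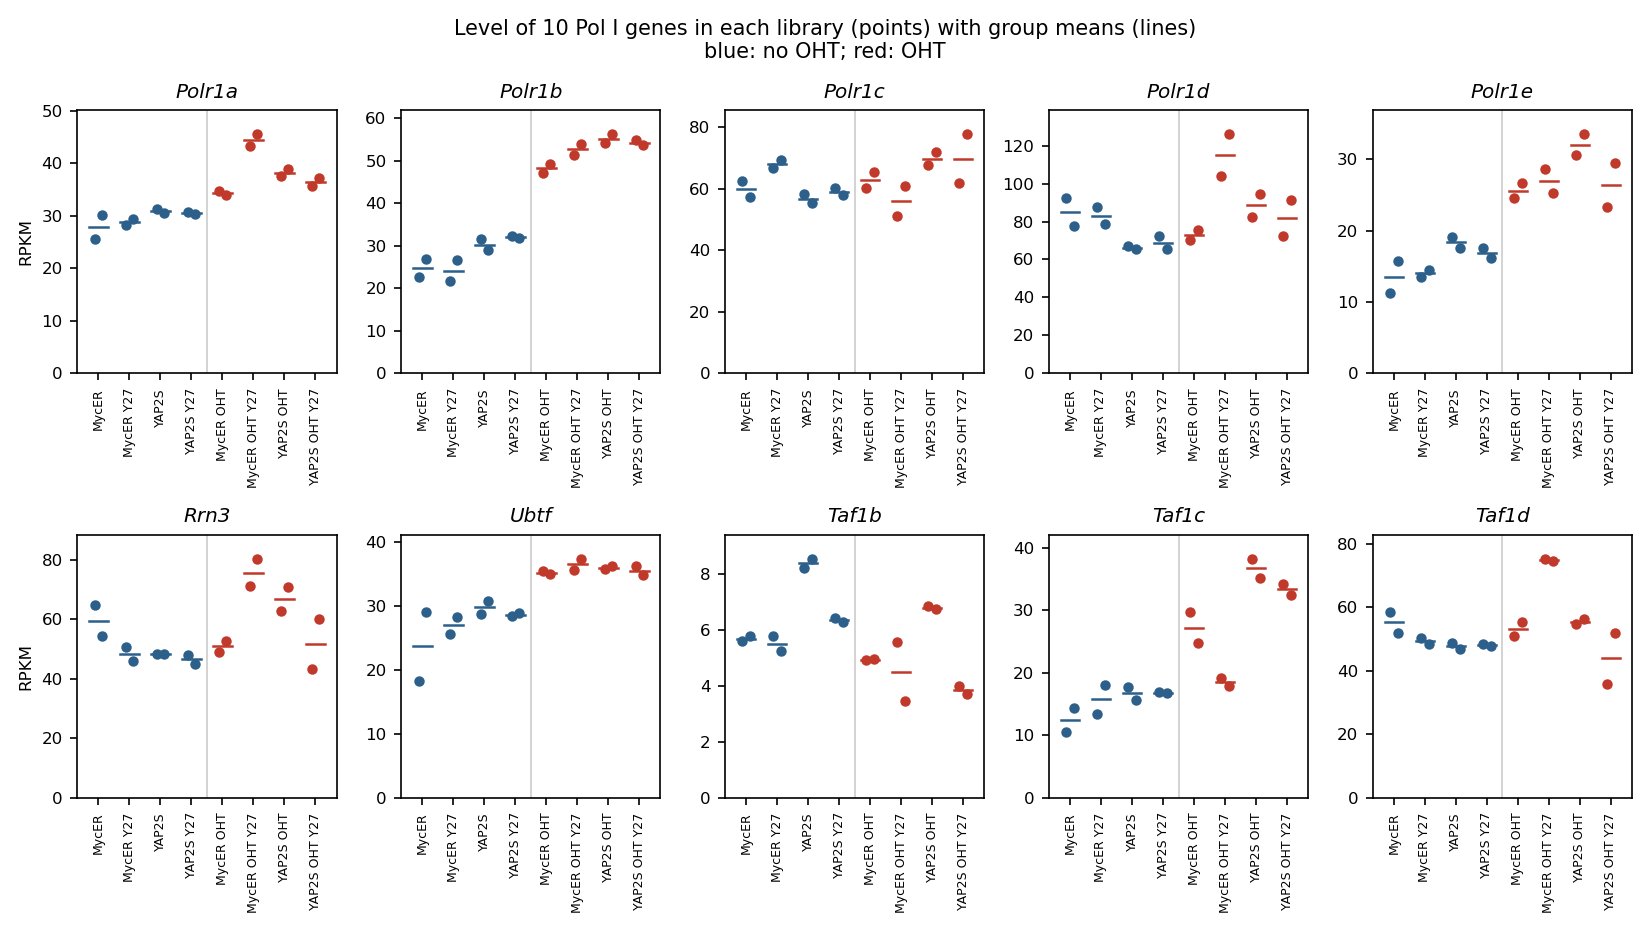
RPKM of the 10 genes (y axis, linear, from 0) in the 8 groups (x axis), with 2 points per group for the libraries and a line for their mean, blue without and red with OHT. In Polr1a, Polr1b, Polr1e and Ubtf all 8 OHT libraries lie above all 8 others, and in Taf1c 7 of 8 do.

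The first question is whether the genes of the Pol I machinery rise when MycER is activated. With OHT, averaged over the 4 settings, 7 of the 10 genes rose and 1 fell, against 13% of all genes tested that rose and 19.3% that fell. Polr1b, Taf1c and Polr1e rose most, by 1.73- to 1.88-fold, Ubtf, Polr1a, Rrn3 and Polr1d by 1.17- to 1.31-fold, and Taf1b fell. Leaving out the 3 libraries under 4 M reads removes the MycER OHT Y27 group and 1 MycER library. The remaining 3 OHT groups were then set against all 4 groups without OHT, which is not balanced over the labelled settings. The log2 changes there were 0.26 for Polr1a, 0.88 for Polr1b, 0.75 for Polr1e, 0.31 for Ubtf, 0.98 for Taf1c and -0.29 for Taf1b. They were 0.13 for Polr1d and 0.17 for Rrn3. The median change was 0.31 on the log2 scale over the members and -0.04 over all genes tested. Changes are of log2(RPKM + 1), which understates those of low genes, and each adjusted p is from limma with Benjamini-Hochberg adjustment over all 13028 genes.

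Polr1a encodes the largest, catalytic subunit. It read 25.5 and 30.1 RPKM in MycER, 28.3 and 29.4 in MycER Y27, 31.3 and 30.6 in YAP2S and 30.7 and 30.4 in YAP2S Y27. With OHT it read 34.6 and 34.0 in MycER OHT, 43.2 and 45.5 in the MycER OHT Y27 pair, 37.5 and 38.9 in YAP2S OHT and 35.7 and 37.1 in YAP2S OHT Y27. All 8 OHT libraries lay above all 8 others, which 2.09% of the genes tested did. The averaged change was 0.36 ± 0.05 (SE, adjusted p = 0.000142).

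Polr1b encodes the second largest subunit, which forms the active site with the first. Without OHT it read 22.7 and 26.8 RPKM in MycER, 21.7 and 26.6 in MycER Y27, 31.6 and 28.9 in YAP2S and 32.2 and 31.8 in YAP2S Y27. With OHT it read 47.1 and 49.3 in MycER OHT, 51.4 and 54.0 in the MycER OHT Y27 pair, 54.1 and 56.2 in YAP2S OHT and 54.8 and 53.7 in YAP2S OHT Y27. The lowest OHT library thus stood well above the highest other. The averaged change of 0.91 ± 0.06 (adjusted p = 1.01e-06) was the largest among the members.

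Polr1c and Polr1d encode the subunit pair that Pol I shares with Pol III. Polr1c read 55.3 to 69.3 RPKM without OHT (median 59.2) and 51.1 to 77.7 with it (median 63.6), and its change of 0.08 ± 0.06 did not pass the test (adjusted p = 0.378). Polr1d read 65.4 to 92.3 RPKM without OHT (median 74.8) and 70.2 to 126.0 with it (median 86.8). The groups overlapped, and the 2 highest libraries were those of MycER OHT Y27, at 104.0 and 126.0. Its change of 0.22 ± 0.07 passed (adjusted p = 0.0348), and not without the 3 shallow libraries (0.13, adjusted p = 0.192), nor with any of 11 of the 16 libraries left out singly.

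Polr1e encodes PAF53, a subunit specific to Pol I that is the mouse counterpart of yeast A49. Without OHT it read 11.2 and 15.7 RPKM in MycER, 13.5 and 14.5 in MycER Y27, 19.1 and 17.6 in YAP2S and 17.5 and 16.2 in YAP2S Y27. With OHT it read 24.6 and 26.6 in MycER OHT, 28.6 and 25.3 in the MycER OHT Y27 pair, 30.6 and 33.5 in YAP2S OHT and 23.3 and 29.5 in YAP2S OHT Y27. Here too no OHT library overlapped the others, and the change was 0.79 ± 0.08 (adjusted p = 2.15e-05).

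Rrn3 encodes the factor that makes the polymerase competent to initiate. It read 45.1 to 64.8 RPKM without OHT (median 48.3) and 43.2 to 80.5 with it (median 61.4), and the highest libraries were those of MycER OHT Y27, at 71.1 and 80.5. Libraries with and without OHT overlapped. The change of 0.25 ± 0.07 passed the test (adjusted p = 0.0213), and not without the 3 shallow libraries (0.17, adjusted p = 0.129), nor with any of 5 libraries left out singly.

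Ubtf encodes UBF, which keeps the ribosomal repeats open and recruits SL1. Without OHT it read 18.3 and 29.0 RPKM in MycER, 25.6 and 28.3 in MycER Y27, 28.8 and 30.8 in YAP2S and 28.4 and 28.9 in YAP2S Y27. The 8 OHT libraries were close together, at 34.8 to 37.4 RPKM (median 35.7), and all lay above the others. The change was 0.39 ± 0.08 (adjusted p = 0.00226), and 0.31 (adjusted p = 0.001) without the 3 shallow libraries, among which is the lowest value.

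The 3 SL1 genes went different ways. Taf1c, which encodes a large TAF of SL1, read 10.5 and 14.3 RPKM in MycER, 13.4 and 18.1 in MycER Y27, 17.8 and 15.6 in YAP2S and 16.9 and 16.7 in YAP2S Y27. With OHT it read 29.7 and 24.7 in MycER OHT, 19.2 and 17.9 in the MycER OHT Y27 pair, 38.3 and 35.2 in YAP2S OHT and 34.3 and 32.5 in YAP2S OHT Y27. Of the OHT libraries, 1 of MycER OHT Y27 overlapped the range of the others. The change was 0.84 ± 0.08 (adjusted p = 2.05e-05). The annotation places 584 exon bases of Dnaaf1 on the opposite strand of Taf1c, and Dnaaf1 read at most 0.564 RPKM.

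Taf1b encodes a TAF that resembles the Pol II factor TFIIB. It was the member with the lowest level, and read 5.6 and 5.76 RPKM in MycER, 5.76 and 5.24 in MycER Y27, 8.2 and 8.54 in YAP2S and 6.41 and 6.28 in YAP2S Y27. With OHT it read 4.92 and 4.94 in MycER OHT, 5.56 and 3.45 in the MycER OHT Y27 pair, 6.83 and 6.74 in YAP2S OHT and 3.99 and 3.71 in YAP2S OHT Y27. The ranges overlapped, with 5 of the 8 OHT libraries below all others. It fell by 0.33 ± 0.08 on the log2 scale (adjusted p = 0.0103).

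Taf1d encodes a further TAF of SL1 and hosts small nucleolar RNAs, and its exons overlap 8 annotated snoRNAs and 2 miRNAs. These small RNAs are not rows of the table, and how reads that fall on them were counted is not given in the sources used here. Taf1d read 47.0 to 58.7 RPKM without OHT (median 48.7) and 36.0 to 75.4 with it (median 55.2), and its change of 0.15 ± 0.07 did not pass (adjusted p = 0.121). Its exons also share 235 bases with 4931406C07Rik and 77 with Cep295, both on the other strand.

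**Figure D2:**
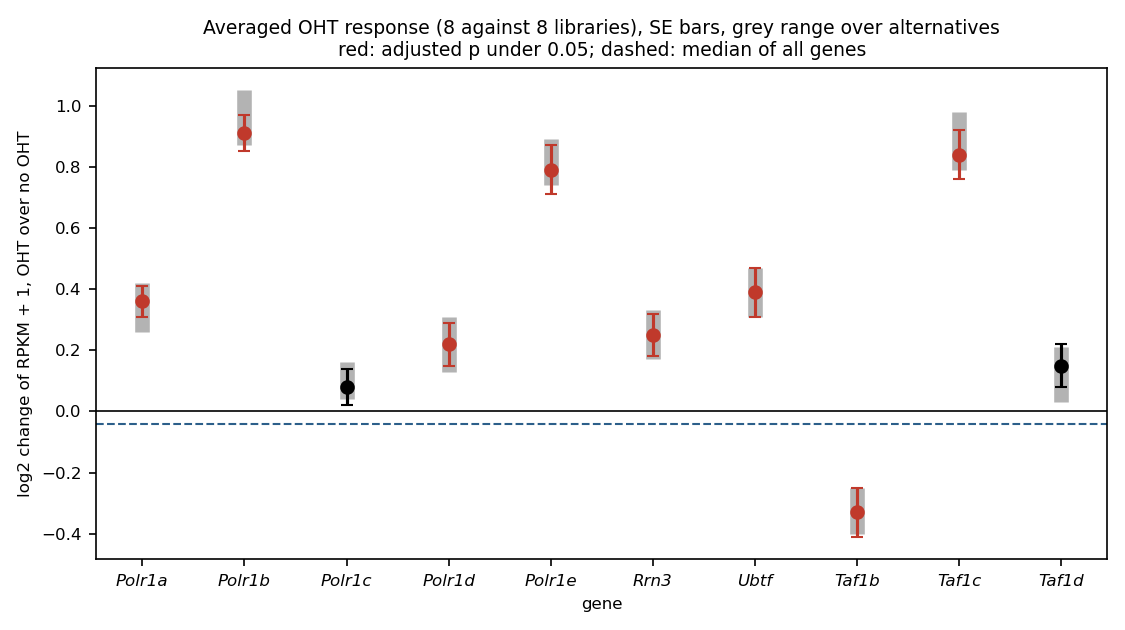
Log2 change of RPKM + 1 (y axis) of each gene (x axis) between the 8 OHT libraries and the 8 others, with SE bars, and as grey bars the range over 26 alternative settings. Polr1b, Taf1c and Polr1e lie at 0.91, 0.84 and 0.79, Taf1b at -0.33, and the dashed line is the median of all genes at -0.04.

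Polr1a, Polr1b, Polr1e, Ubtf, Taf1b and Taf1c passed the test in the same direction in all 26 alternatives, with changes from 0.87 to 1.05 for Polr1b, 0.74 to 0.89 for Polr1e and 0.79 to 0.98 for Taf1c. Polr1d passed in 13 of the 26, Rrn3 in 20, Taf1d in 3 and Polr1c in none.

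The OHT response was next read within each labelled setting. In MycER OHT against MycER, 5 members rose (Polr1a, Polr1b, Polr1e, Ubtf and Taf1c) and none fell, against 31.6% of all genes that rose and 13.3% that fell, and the median of all genes moved by 0.22. Taf1c rose by 1.08 ± 0.16 (adjusted p = 0.000531) and Polr1b by 0.94 ± 0.11 (adjusted p = 0.000156). The Ubtf call of 0.59 ± 0.15 (adjusted p = 0.00937) was lost without MycER replicate 1, where the change was 0.27, without MycER OHT replicate 1 and without the 3 shallow libraries. The Polr1a change of 0.3 ± 0.09 (adjusted p = 0.02) stood close to the median of all genes. It was lost without MycER replicate 1 or either MycER OHT library, without the shallow libraries, under quantile and cyclic loess normalization and in both voom fits, which weight reads by precision, taken as recovered or after a correction that assumes each position and strand kept at most 1 read (duplicate-corrected). Fitted on the comparison's own 4 libraries, Polr1a, Polr1e and Ubtf did not pass.

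In MycER OHT Y27 against MycER Y27, 7 members rose and none fell, against 16.6% and 33.5% of all genes and a median of -0.16. Polr1b rose by 1.1 ± 0.11 (adjusted p = 1.06e-05) and Polr1a by 0.6 ± 0.09 (adjusted p = 0.000215). Rrn3, Polr1d and Taf1d rose by 0.64, 0.46 and 0.59 and missed the test in the other 3 labelled settings, and the OHT libraries here are the shallow ones of MycER OHT Y27. The Polr1d call was lost without MycER Y27 replicate 2 or MycER OHT Y27 replicate 2, under quantile normalization and on the comparison's own libraries, and the Ubtf call of 0.43 ± 0.15 with any of 8 libraries left out. Taf1c changed by 0.24 ± 0.16 (adjusted p = 0.233).

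In YAP2S OHT against YAP2S, Polr1b, Polr1e and Taf1c rose, against 5.76% of all genes, by 0.85 ± 0.11 (adjusted p = 0.000516), 0.77 ± 0.15 (adjusted p = 0.00622) and 1.09 ± 0.16 (adjusted p = 0.00109). None fell, against 8.01% of all genes. The Polr1e call was lost without YAP2S replicate 2 or YAP2S OHT replicate 2. The Polr1a change of 0.29 ± 0.09 missed the threshold (adjusted p = 0.0522). With this comparison fitted on its own 4 libraries, 9 of the 10 members rose. In that fit 2619 of all 13028 genes rose and 3396 fell, so far more genes passed there than in the main fit.

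In YAP2S OHT Y27 against YAP2S Y27 the same 3 genes rose, against 5% of all genes, by 0.74 for Polr1b, 0.61 for Polr1e and 0.95 for Taf1c (adjusted p = 0.000799, 0.0183 and 0.00186). Taf1b fell by 0.6 ± 0.17 (adjusted p = 0.0299), against 10.0% of all genes that fell. The Polr1e call was lost without YAP2S OHT Y27 replicate 2 or either YAP2S Y27 library, and that of Taf1b with any of 8 libraries left out and under quantile normalization. On the comparison's own libraries neither passed. Polr1b and Polr1e were the 2 members that rose in all 4 labelled settings, which 0.76% of all genes did.

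The OHT libraries were also compared across the labels. In YAP2S OHT against MycER, Polr1a, Polr1b, Polr1e, Ubtf and Taf1c rose, against 16.1% of all genes, and Taf1c did so by 1.51 ± 0.16 (adjusted p = 0.000133). None fell there, against 3.61%. The Ubtf call was lost without MycER replicate 1 or either YAP2S OHT library, and that of Polr1a without either YAP2S OHT library. Fitted on the comparison's own 4 libraries, none of the 5 calls held (adjusted p from 0.0808 for Polr1b to 0.239 for Ubtf). In YAP2S OHT Y27 against MycER Y27, Polr1b, Polr1e and Taf1c rose, against 4.22%, with none lower (1.96% of all genes), and the Polr1e and Taf1c calls were lost without MycER Y27 replicate 1 (adjusted p up to 0.101 and 0.0632). On that comparison's own libraries none of the 3 passed (adjusted p = 0.138, 0.275 and 0.208). In MycER OHT Y27 against YAP2S, Polr1a, Polr1b, Polr1d, Polr1e, Rrn3 and Taf1d rose, against 11.6%, and Taf1b fell by 0.79 ± 0.17, against 38.2%, while Taf1c changed by 0.15 ± 0.16 (adjusted p = 0.464). The Polr1e call there was lost without MycER OHT Y27 replicate 1 or YAP2S replicate 2, and that of Taf1b under quantile, cyclic loess and duplicate-corrected scaling. In MycER OHT against YAP2S Y27 no member passed in limma (0.284% of all genes rose and 0.0384% fell). There 3 rose at an unadjusted p under 0.05 and in voom on recovered reads, Polr1b, Polr1e and Taf1c. The share of all genes that did so is not given here. Polr1b changed by 0.58 ± 0.11 (adjusted p = 0.0564 in limma). These comparisons share groups with those within labels, so they are no separate evidence.

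**Figure D3:**
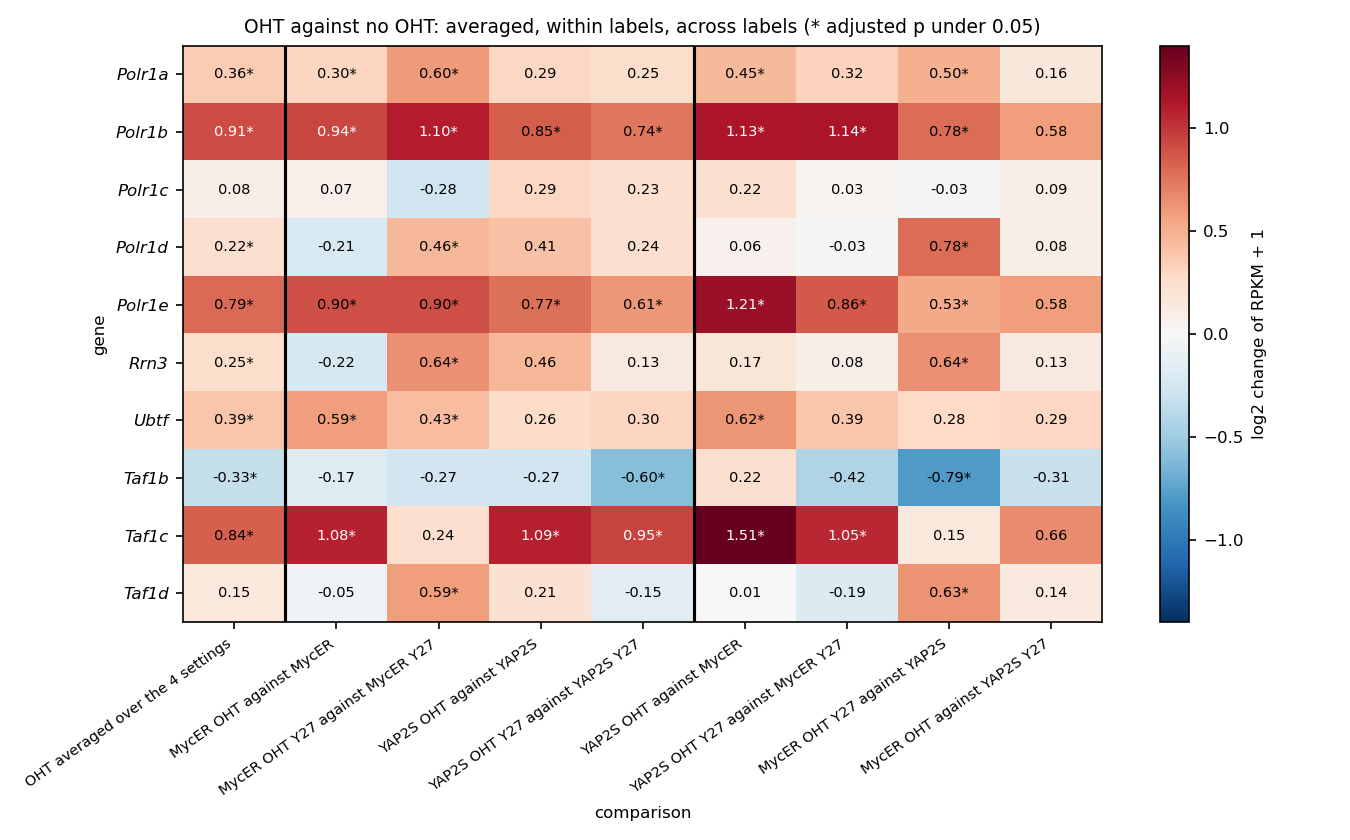
Log2 change of RPKM + 1 (colour and printed value) of each gene (rows) in 9 comparisons of OHT with no OHT (columns: averaged, 4 within labels, 4 across labels), with an asterisk at an adjusted p under 0.05. Polr1b is positive throughout, from 0.58 to 1.14, and Polr1e from 0.53 to 1.21.

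Y27 was given to test whether ROCK activity matters for the Myc response. Without OHT it moved none of the 10 genes past the test, either averaged over MycER and YAP2S (10.1% of all genes rose and 4.51% fell) or in MycER (13.4% and 4.47%) or YAP2S (0.407% and 0.261%). In limma 0 members had an unadjusted p under 0.05 in these comparisons, and 0 passed in voom on recovered reads. The averaged changes ranged from -0.2 for Taf1b to 0.17 for Taf1c. With OHT as labelled, MycER OHT Y27 against MycER OHT gave higher Polr1a, Polr1d, Rrn3 and Taf1d, by 0.36 to 0.64, against 10.5% of all genes, and lower Taf1c, which fell by 0.52 ± 0.16 (adjusted p = 0.0188), against 36.4%. Depth differed there too, at 3.63 and 2.62 M reads against 15.71 and 13.49 M, and its part in the change was not tested. The Taf1c call was lost under quantile, cyclic loess and both read-based scalings, and without MycER OHT replicate 1 or MycER OHT Y27 replicate 2. The Polr1a, Rrn3 and Taf1d calls were also lost without MycER OHT Y27 replicate 2, those of Rrn3 and Taf1d without MycER OHT replicate 1, that of Taf1d without MycER OHT Y27 replicate 1, and Rrn3 and Taf1d were lost under quantile normalization. Polr1d turned to -0.08 under quantile normalization and was lost under cyclic loess. In YAP2S OHT Y27 against YAP2S OHT, Taf1b fell by 0.68 ± 0.17 (adjusted p = 0.0207), against 6.4% of all genes (4.97% rose, and no member), and was lost without YAP2S OHT Y27 replicate 1 or either YAP2S OHT library and on the comparison's own libraries.

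Without OHT, YAP2S against MycER cells averaged over Y27 gave higher Polr1b (0.34 ± 0.08, adjusted p = 0.00519), Polr1e (0.34 ± 0.11, adjusted p = 0.0237) and Taf1b (0.33 ± 0.12, adjusted p = 0.0374), against 30.0% of all genes. Polr1d fell by 0.31 ± 0.1 (adjusted p = 0.0307), against 13% of all genes. The median of all genes was 0.15 here. Under quantile normalization Polr1d became 0.09 and Taf1b -0.01, and Polr1e was 0.05 (adjusted p = 0.606). Polr1b passed under quantile normalization at 0.19, cyclic loess at 0.35 and on duplicate-corrected reads at 0.23, and without the 3 shallow libraries at 0.28 (adjusted p = 0.0195). Polr1d and Polr1e missed the test without the shallow libraries. The calls of Polr1d, Polr1e and Taf1b were each lost with any of several libraries left out, 5, 4 and 11 of 16.

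Taken setting by setting, YAP2S against MycER gave higher Polr1e (0.44 ± 0.15, adjusted p = 0.0447) and Taf1b (0.49 ± 0.17, adjusted p = 0.0399), against 24.8% of all genes, and none lower, against 8.43%, and both calls were lost under quantile and cyclic loess normalization, in both voom fits, on the comparison's own libraries, without the shallow libraries and with any of 13 or 10 libraries left out. YAP2S Y27 against MycER Y27 gave higher Polr1b (0.4 ± 0.11, adjusted p = 0.0302), against 10.6%, and none lower, against 5.43%, and the call was lost without MycER Y27 replicate 1 or either YAP2S Y27 library. With OHT, where the labels are in doubt, no member passed in YAP2S OHT against MycER OHT in limma (4.34% of all genes rose and 6.72% fell). There 3 had an unadjusted p under 0.05 and 3 passed in voom on recovered reads, but the shares of all genes that did so are not given here. In YAP2S OHT Y27 against MycER OHT Y27, Taf1c was higher (0.81 ± 0.16, adjusted p = 0.00161), against 32.8%, and Taf1d (-0.78 ± 0.14, adjusted p = 0.000844), Polr1a, Polr1d and Rrn3 were lower, against 14.2%. The last 3 calls were lost without MycER OHT Y27 replicate 2 or YAP2S OHT Y27 replicate 1 and on the comparison's own libraries.

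The difference between responses was tested 5 times, as labelled. For OHT by Y27 in MycER, Polr1d, Rrn3 and Taf1d had a higher OHT change with Y27 (against 12.3% of all genes) and Taf1c a lower one (against 39.1%), with Taf1c at 1.08 without Y27 and 0.24 with it. For OHT by YAP2S without Y27, Polr1d and Rrn3 were higher (12.4%) and none lower (26.1%). For OHT by YAP2S with Y27, Polr1c and Taf1c were higher (22.8%) and Polr1a and Taf1d lower (13.3%). None passed for OHT by Y27 in YAP2S (0.0691% and 0.376%) or Y27 by YAP2S without OHT (0.361% and 0.207%), where 0 had an unadjusted p under 0.05 and 0 passed in voom. Polr1b, Polr1e, Ubtf and Taf1b passed in none of the 5 in limma, while quantile normalization and cyclic loess called Polr1e (0.5 and 0.6) and Taf1b (0.63 and 0.61) for OHT by Y27 in MycER. In the comparisons above where no member was lower, voom on recovered reads gave 0 as well. An unadjusted limma p under 0.05 was reached there by Polr1c in MycER OHT Y27 against MycER Y27, Taf1b in YAP2S OHT Y27 against MycER Y27 and Polr1d in YAP2S against MycER.

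Sorting the 8 groups by mean level gave no OHT group below a group without OHT for Polr1a, Polr1b, Polr1e, Ubtf and Taf1c. The share of all genes tested with that order of group means is not given here. For Polr1b the order from low to high was MycER Y27, MycER, YAP2S, YAP2S Y27, MycER OHT, MycER OHT Y27, YAP2S OHT Y27 and YAP2S OHT, and the values of 3 of the 7 neighbouring pairs overlapped (MycER Y27 with MycER, MycER OHT Y27 with YAP2S OHT Y27, and YAP2S OHT Y27 with YAP2S OHT). For Taf1c the order was MycER, MycER Y27, YAP2S, YAP2S Y27, MycER OHT Y27, MycER OHT, YAP2S OHT Y27 and YAP2S OHT, and the first 4 groups overlapped neighbour by neighbour. For Ubtf each neighbouring pair of the 4 OHT groups overlapped. For Polr1c and Polr1d 6 of the 7 neighbouring pairs overlapped.

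Across the 16 libraries the members fell into patterns. Polr1b and Polr1e were the most alike (r = 0.96, Pearson, log2 scale), and Polr1a, Polr1b, Polr1e and Ubtf had r of 0.86 to 0.96 with each other. Taf1c was closest to Polr1b and Polr1e (both 0.85). Rrn3 had r of 0.9 with Polr1d and 0.87 with Taf1d. Taf1b had a negative r with each of the other 9, from -0.17 with Taf1d to -0.52 with Polr1d. Polr1d, Rrn3 and Taf1d were also lower in deeper libraries (r with log2 depth = -0.78, -0.66 and -0.62). That r was -0.1 for Polr1a, 0.13 for Polr1b, 0.15 for Polr1c and 0.22 for Polr1e. For Ubtf, Taf1b and Taf1c it was 0.36, 0.37 and 0.46. These values are descriptions over libraries that share depth and groups. Reads as a share of the gene's positions on both strands reached 55.1% for Polr1d, 47.4% for Polr1c, 40.1% for Taf1d and 39.5% for Rrn3. They reached 37.0% for Polr1b and 19.3% for Polr1e. The OHT calls of Polr1d and Rrn3, lost without the 3 shallow libraries, held in limma under other scalings. In voom on duplicate-corrected reads their changes were 0.31 and 0.33 (adjusted p = 0.00704 and 0.0064), under quantile normalization 0.19 and 0.23 (adjusted p = 0.00239 and 0.00454) and under cyclic loess 0.2 and 0.24 (adjusted p = 0.00135 and 0.00164). The genes whose profile was most like the members' mean were Setdb1 and Smpdl3b (both r = 0.973), Pdxp (0.965), Rpp40 and Setd6 (both 0.96), of 9882 candidates. Setdb1 encodes a histone methyltransferase and Rpp40 a subunit of RNase P and MRP.

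**Figure D4:**
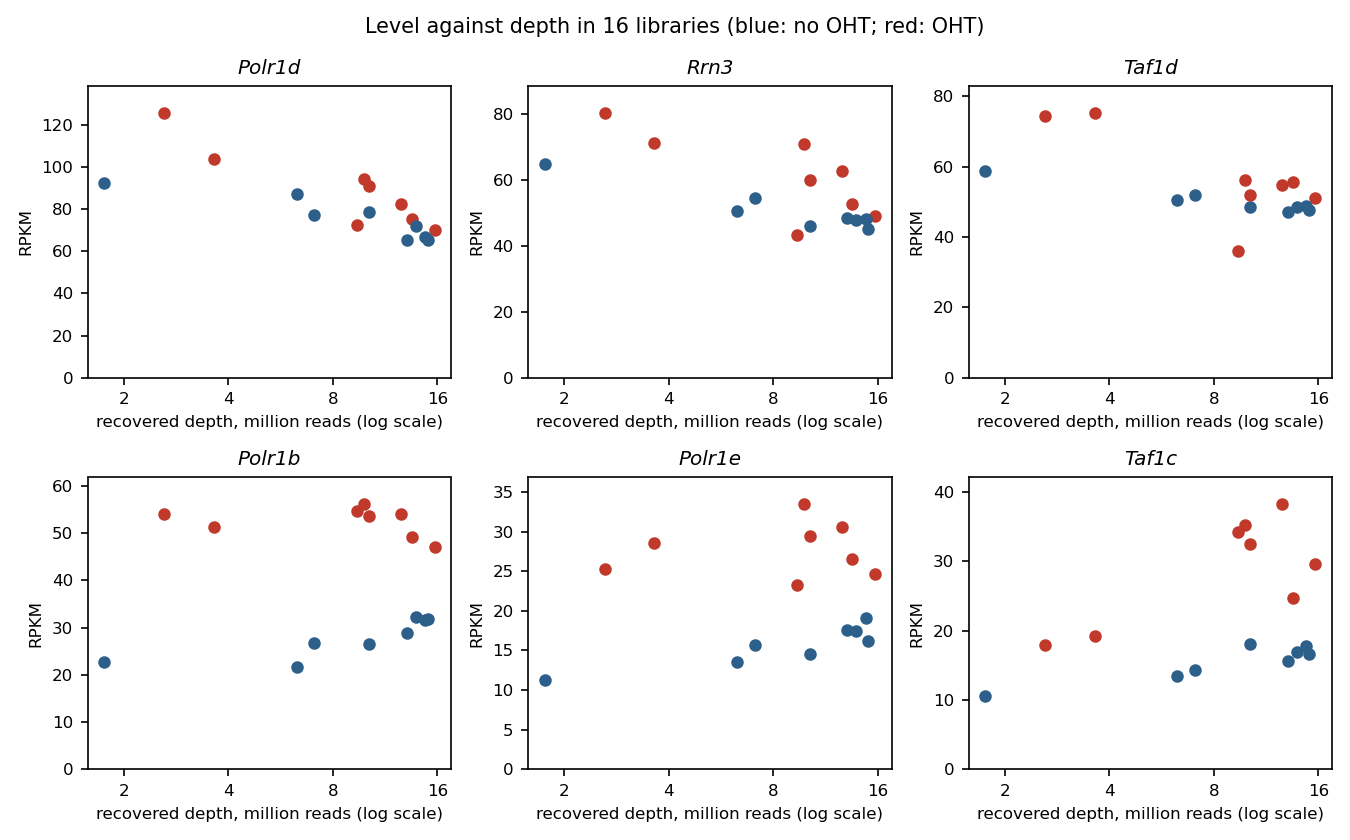
RPKM (y axis, from 0) of 6 members against the recovered depth of each of 16 libraries (x axis, log scale), blue without and red with OHT. Polr1d, Rrn3 and Taf1d are highest in the 2 OHT libraries under 4 M reads, while the red points of Polr1b and Polr1e all lie above the blue ones.

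The other genes of the machinery were read from lists of 77 genes. Of the other Pol I subunits, 1 of 3 rose with OHT averaged, Cd3eap (PAF49, the partner of Polr1e's product; 0.55 ± 0.14, adjusted p = 0.0104), and none fell. Of the 5 tested initiation and termination factors besides the members, 1 rose, Taf1a, which encodes another TAF of SL1 (0.37 ± 0.08, adjusted p = 0.00355). Of the 23 regulators of ribosomal chromatin and of Pol I, 11 rose and 2 fell, among them Ncl, which encodes nucleolin (0.8 ± 0.07, adjusted p = 1.23e-05), Tcof1, the treacle protein of the nucleolus (0.55 ± 0.06, adjusted p = 3.7e-05), and Nolc1, a nucleolar phosphoprotein (0.66 ± 0.13, adjusted p = 0.00219). Of the 8 subunits specific to Pol II none passed, and their changes ran from 0.01 to 0.19. Among 16 Pol III factors 3 rose and 3 fell, and of the 5 subunits shared by all 3 polymerases 1 rose and 1 fell. Of all genes tested, 13% rose and 19.3% fell. The list medians ran from -0.09 for Pol III factors to 0.23 for the other Pol I subunits, against a median of -0.04 over all genes.

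**Figure D5:**
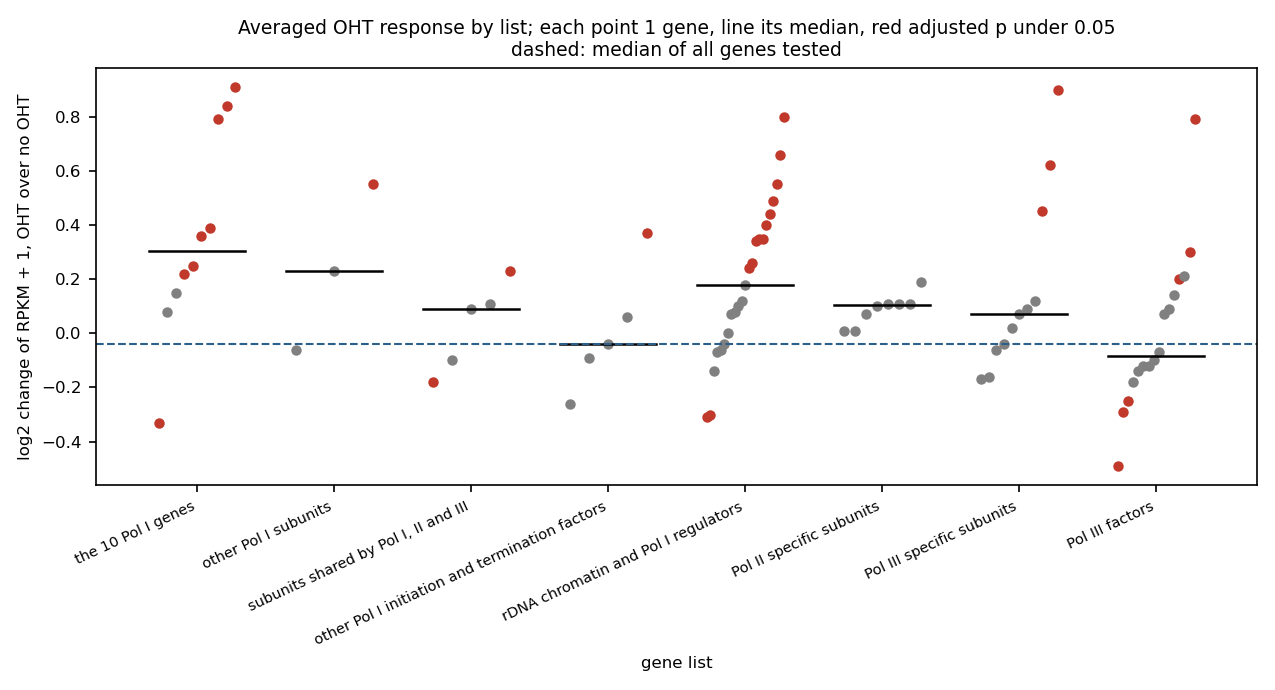
Log2 change of RPKM + 1 with OHT averaged (y axis) of each gene in 8 lists (x axis), red at an adjusted p under 0.05, with a black line for each list's median and a dashed line for all genes at -0.04. The 10 Pol I genes have a median of 0.31 and the regulators of ribosomal chromatin 0.18.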

How the data were processed

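RNA from 16 libraries was sequenced after a kit without its poly(T) selection step. The submitters' processing notes list featureCounts 1.4.5-p1, SAMtools, TopHat and TopHat2 2.0.8, with no role for each, and mm9 as genome build. The deposited values are RPKM as normalized by the authors. No label names the unit, which was inferred because each value is a whole number of reads, to within 0.01, at a whole gene length. From these steps reads and depth (1.76 to 15.71 M) were recovered. Strand handling and annotation are not given in the sources used here. Symbols come from the files, and overlaps from the GENCODE M21 annotation matched by symbol.

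Values were set to log2(RPKM + 1), and genes that reached 1 RPKM in 2 or more libraries were fitted in limma 3.58.1 under R 4.3.3, all libraries together, with the trend option and 8 residual degrees of freedom. Comparisons were adjusted by Benjamini-Hochberg at 0.05 over all genes. The members and lists were chosen with earlier results of these data known. Members are named in every comparison, list genes by the smallest adjusted p, and like genes by Pearson r. The test was tried on simulated counts that had no limit on values in deep libraries, so that trial cannot show how the limit affects the calls. In all, 24 comparisons were made. Alternatives were another pseudocount, other filters, scalings and fits, the replicate number as a term, and leaving out each library. Leaving out the 3 shallow libraries was added after seeing the data. It drops the MycER OHT Y27 group, so its averaged OHT comparison is not balanced over the labelled settings. A gene of the lists, and the count of the list that holds it, are not reported here. Figures were drawn with matplotlib 3.10.9.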

Additional observations from a re-analysis of the deposited data

Results flagged for a closer look

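In 10 cases a test of the difference between 2 responses passed in limma, as labelled. For OHT by Y27 in MycER, these were Polr1d (0.67 ± 0.21, adjusted p = 0.017), Rrn3 (0.85 ± 0.21, adjusted p = 0.00526), Taf1d (0.64 ± 0.2, adjusted p = 0.0167) and Taf1c (-0.84 ± 0.23, adjusted p = 0.00864). For OHT by YAP2S without Y27 they were Polr1d (0.62 ± 0.21, adjusted p = 0.0317) and Rrn3 (0.67 ± 0.21, adjusted p = 0.0242). For OHT by YAP2S with Y27 they were Polr1a (-0.35 ± 0.13, adjusted p = 0.0486), Polr1c (0.51 ± 0.17, adjusted p = 0.0375), Taf1c (0.71 ± 0.23, adjusted p = 0.0275) and Taf1d (-0.74 ± 0.2, adjusted p = 0.011). Of these, Rrn3 in the first and Taf1d in the last passed in all 26 alternatives. Leaving out the 3 shallow libraries is not among those 26, since it drops the MycER OHT Y27 group that both contrasts need. Polr1d became -0.21 in the first and -0.05 in the second under quantile normalization, and Taf1c in the first was -0.27 (adjusted p = 0.231). Under both quantile and cyclic loess normalization the calls of Polr1d, Taf1c and Taf1d in the first and of Polr1d and Rrn3 in the second were lost, the last 2 also without the 3 shallow libraries, and Taf1c in the first also in both voom fits. In the last, Polr1a and Polr1c were lost on the libraries of the comparison alone, and Polr1c in both voom fits. With single libraries left out, Polr1d and Taf1d in the first were lost in 4 and 3 of 16 cases, Polr1d and Rrn3 in the second in 6 and 5, and Polr1a, Polr1c and Taf1c in the last in 13, 12 and 5. Among all genes, 12.3% passed upward and 39.1% downward in the first. These contrasts rest on the libraries whose population genes go against their labels, and on shallow ones. No member passed for OHT by Y27 in YAP2S or for Y27 by YAP2S without OHT.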

How the results depend on the processing

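The averaged OHT response gave 5 to 8 members higher and 1 lower over all alternatives. For MycER OHT against MycER the count of members lower became 1 under quantile and cyclic loess normalization, and of members higher 2 on the comparison's own libraries and 3 without the 3 shallow libraries. For MycER OHT Y27 against MycER Y27 the members lower became 1 under quantile and cyclic loess normalization. Counts over all 13028 genes changed with the fit too. With OHT averaged, 1695 rose in the main fit, 2300 under quantile normalization, 2300 under cyclic loess and 2222 on duplicate-corrected reads. In MycER OHT against MycER, 4119 genes rose in the main fit and 652 on its own libraries. There 1732 fell in the main fit, 2649 under quantile normalization and 2525 under cyclic loess. In MycER OHT Y27 against MycER Y27, 4364 fell in the main fit, 3221 under quantile normalization and 3382 under cyclic loess. For YAP2S OHT against YAP2S the members higher became 6 under quantile normalization, 5 under cyclic loess, 5 with voom on recovered reads, 7 on duplicate-corrected reads, 9 on its own libraries and 7 without the shallow ones. For YAP2S OHT Y27 against YAP2S Y27 the members higher became 5 under quantile normalization, with both voom fits and without the shallow libraries, and the members lower 0 under quantile normalization and on its own libraries. Over all genes, 750 rose in YAP2S OHT against YAP2S in the main fit, 1322 under quantile normalization and 1092 under cyclic loess. With voom 1251 rose on recovered and 1567 on duplicate-corrected reads, and 2619 rose on the comparison's own libraries. In YAP2S OHT Y27 against YAP2S Y27, 652 rose in the main fit, 1422 under quantile normalization, and 1233 and 1536 in voom on recovered and duplicate-corrected reads. There 1303 fell in the main fit, 1434 under quantile normalization and 350 on its own libraries. In YAP2S averaged without OHT, 3902 rose in the main fit, 2265 under quantile normalization, 2249 under cyclic loess and 2470 on duplicate-corrected reads. There 1692 fell in the main fit, 2453 under quantile normalization, 2194 under cyclic loess and 2538 on duplicate-corrected reads. Counts over all genes without the shallow libraries are not given, since that fit leaves 1 MycER library. For Y27 averaged without OHT 1 member rose under cyclic loess, as did 1143 genes (1321 in the main fit). For YAP2S averaged without OHT the members higher became 1 and the members lower 0 under quantile, cyclic loess and duplicate-corrected reads, and the members lower 0 without the shallow libraries.

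With single libraries left out, the members higher ran from 3 to 5 in MycER OHT against MycER, 5 to 7 in MycER OHT Y27 against MycER Y27, 2 to 7 in YAP2S OHT against YAP2S, 2 to 5 in YAP2S OHT Y27 against YAP2S Y27, 0 to 1 for Y27 averaged and 1 to 6 for YAP2S averaged, and the members lower 0 to 1 in MycER OHT Y27 against MycER Y27, YAP2S OHT Y27 against YAP2S Y27 and YAP2S averaged. Signs reversed under quantile and cyclic loess normalization for Polr1d in MycER OHT against MycER (0.33 and 0.37, from an uncalled -0.21), YAP2S averaged (0.09 and 0.13), OHT by Y27 in MycER (-0.21 and -0.17) and OHT by YAP2S without Y27 (-0.05 and -0.17). In OHT by Y27 in MycER, values near 0 that were not called in the main fit, 0 for Polr1e and -0.09 for Taf1b, were called under these scalings (Polr1e 0.5 and 0.6, Taf1b 0.63 and 0.61). Signs also reversed under quantile for Polr1d in MycER OHT Y27 against MycER OHT (-0.08) and Taf1b in YAP2S averaged (-0.01). Under cyclic loess, Polr1c in YAP2S against MycER went from an uncalled -0.07 to 0.27. The cause was not tested. Whether the replicate numbers pair the libraries is not known. The differences between replicates 1 and 2 correlated above 0.1 in 8 of 28 group pairs (-0.33 to 0.43). This cannot settle it, since depth also differed within groups (1.76 and 7.08 M reads in MycER). With the replicate block the counts stayed as they were and 1 call was lost in limma, Polr1a for OHT by YAP2S with Y27 (-0.35, adjusted p = 0.0546). The reads behind a member's value ran from 22 to 4852 per library and were fewest for Taf1b. A member that missed the test is not shown to be unchanged.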
